A study of Mus musculus with 2 samples.

Results

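The 41 genes described here encode proteins that build, check and divide the mitotic spindle and its chromosomes. They were listed by name, from Mki67 and Top2a through the centromere, checkpoint, kinesin and cytokinesis genes to Ckap2l and Cdkn3, and all 41 were found among the 32285 genes of the deposited counts. The cells came from the femurs and tibias of male INK-ATTAC mice aged 24 months, which the study describes as untreated, while the labels name no treatment. INK-ATTAC mice carry a transgene in which a fragment of the p16 promoter drives a death-inducing fusion protein that needs a drug to act. Live Lin-CD45- cells of 3 mice were pooled for 10x 3′ single-cell sequencing, in which each captured RNA molecule is counted as a unique molecular identifier (UMI). The labels number 2 replicates of this pool, which the shared barcodes described below show to be the same cells. There was therefore 1 biological sample and no younger or treated group, so no test across animals could be made. The lineage depletion included Ter-119, which is carried by later erythroid cells. The part of this step in the share of cells at each erythroid stage was not tested.

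During mitosis, kinetochores assemble on centromeres and attach chromosomes to spindle microtubules, and a checkpoint holds the cell until every chromosome is attached. The anaphase-promoting complex (APC/C) then marks securin and the mitotic cyclins for destruction, kinesins and cytokinesis proteins separate the daughter cells, and most of the transcripts concerned accumulate in G2 and mitosis of each cycle. In the marrow, erythroid progenitors and erythroblasts divide while they fill with globin, whereas megakaryocytes enter repeated cycles in which mitosis is not completed, and LEPR+ stromal cells rarely divide.

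Both labelled replicates held the same cells, with 10928 of 11056 barcodes in common, so their counts were summed per barcode and they are called runs here. What separates the runs is not given in the sources used here. A total of 9573 barcodes had at least 200 genes and at most 20% mitochondrial UMIs. Clusters were made without the members among the variable genes and were named from marker lists. They gave 6426 erythroid-like, 1941 LEPR+ stromal-like, 140 fibroblast-like, 131 megakaryocyte-like, 48 endothelial-like and 44 plasma cell-like cells, while 3 clusters of 355, 251 and 237 shallow cells stayed unnamed. Most defining markers followed the names, with exceptions given below. Klf1 and Gata1, transcription factors of erythroid cells, were at 279 and 104 CPM (UMIs of a gene per 1000000 UMIs of the class) in erythroid-like cells, and Klf1 was at 23.9 CPM in LEPR+ stromal-like cells. The platelet chemokine gene Pf4 was at 25157 CPM in megakaryocyte-like cells, Cdh5 of endothelial junctions was at 1017 CPM in endothelial-like cells, and Lepr and Cxcl12 were at 1498 and 21055 CPM in LEPR+ stromal-like cells. Col1a1, a collagen gene of fibroblasts, was at 3617 CPM in fibroblast-like cells. Other markers were not particular to their class. Gata1 was at 91.6 CPM in megakaryocyte-like cells, Ly6a was at 1389 CPM in endothelial-like against 422 CPM in fibroblast-like cells, Pdgfra was higher in LEPR+ stromal-like cells (373 CPM) than in fibroblast-like cells, and Aqp1 was at 664 CPM in endothelial-like against 331 CPM in erythroid-like cells. All intervals below are exact 95% intervals that cover counting error only.

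Many mitotic promoters carry 2 short elements, the CCAAT box bound by NF-Y and the cell cycle homology region (CHR) bound by the MuvB complex. RefSeq promoter windows on GRCm38.p6, from 250 bases before to 30 bases after the annotated start, matched 36 of the 41 members, leaving Smc4, Aurkb, Cdc25c, Kif20a and Tpx2 without one. The letters TTTGAA and also those of the variant TTCGAA, searched on both strands, were in the windows of 26 of these 36 members and in those of 20.9% of 27025 genes. CCAAT, also on both strands, was in the windows of 28 of 36 members and in those of 39.7% of genes, and both kinds of letters were in 22 of 36 members against 7.97% of genes. The windows below are of members whose levels differed most or least between the cells described later, with Mki67 and Top2a as the best known proliferation genes. Each is written 5′ to 3′ on the gene's strand, and capitals mark TTTGAA with its reverse complement TTCAAA, the variant TTCGAA, and CCAAT with its reverse complement ATTGG.
Mki67, chr7:135716350-135716629, minus strand: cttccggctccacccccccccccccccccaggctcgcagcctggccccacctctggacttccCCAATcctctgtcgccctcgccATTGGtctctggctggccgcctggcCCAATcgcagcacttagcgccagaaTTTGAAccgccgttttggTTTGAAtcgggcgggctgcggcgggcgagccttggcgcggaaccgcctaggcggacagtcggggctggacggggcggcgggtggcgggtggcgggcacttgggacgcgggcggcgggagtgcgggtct
Top2a, chr11:99024160-99024439, minus strand: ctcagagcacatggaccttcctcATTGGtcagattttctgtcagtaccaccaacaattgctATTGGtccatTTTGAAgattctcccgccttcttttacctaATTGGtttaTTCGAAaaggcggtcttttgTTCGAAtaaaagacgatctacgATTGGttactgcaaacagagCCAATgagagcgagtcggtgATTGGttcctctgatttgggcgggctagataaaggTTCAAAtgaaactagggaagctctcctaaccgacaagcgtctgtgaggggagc
Ube2c, chr2:164769679-164769958, plus strand: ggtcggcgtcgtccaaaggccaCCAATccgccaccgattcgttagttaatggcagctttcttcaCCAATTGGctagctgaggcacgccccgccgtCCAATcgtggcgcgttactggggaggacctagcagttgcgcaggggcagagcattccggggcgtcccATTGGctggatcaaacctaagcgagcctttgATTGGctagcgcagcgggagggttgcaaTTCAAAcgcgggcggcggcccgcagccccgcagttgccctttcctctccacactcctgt
Cdc25b, chr2:131186698-131186977, plus strand: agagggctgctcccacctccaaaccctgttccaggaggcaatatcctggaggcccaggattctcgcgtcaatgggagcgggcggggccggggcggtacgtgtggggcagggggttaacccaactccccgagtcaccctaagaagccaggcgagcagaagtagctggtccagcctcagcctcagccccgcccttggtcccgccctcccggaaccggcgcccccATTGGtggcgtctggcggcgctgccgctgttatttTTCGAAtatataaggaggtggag
Cdkn3, chr14:46760291-46760570, plus strand: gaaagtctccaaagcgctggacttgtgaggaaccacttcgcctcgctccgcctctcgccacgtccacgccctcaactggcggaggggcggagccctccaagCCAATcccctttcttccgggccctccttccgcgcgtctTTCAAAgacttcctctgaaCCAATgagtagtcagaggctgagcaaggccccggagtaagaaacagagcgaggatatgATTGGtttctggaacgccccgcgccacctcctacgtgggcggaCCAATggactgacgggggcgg
Ckap2l, chr2:129297183-129297462, minus strand: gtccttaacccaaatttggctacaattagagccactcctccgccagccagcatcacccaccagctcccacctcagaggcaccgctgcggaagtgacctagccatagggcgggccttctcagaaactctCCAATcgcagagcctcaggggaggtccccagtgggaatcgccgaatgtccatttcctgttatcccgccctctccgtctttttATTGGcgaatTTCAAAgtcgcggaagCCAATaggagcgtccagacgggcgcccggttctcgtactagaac
Kif20b, chr19:34922108-34922387, plus strand: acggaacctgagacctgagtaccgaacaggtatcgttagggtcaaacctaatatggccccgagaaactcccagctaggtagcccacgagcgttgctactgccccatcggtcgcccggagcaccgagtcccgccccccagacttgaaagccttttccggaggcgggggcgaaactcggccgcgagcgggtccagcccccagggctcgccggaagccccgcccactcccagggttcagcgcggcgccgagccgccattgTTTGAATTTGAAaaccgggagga
Nusap1, chr2:119618048-119618327, plus strand: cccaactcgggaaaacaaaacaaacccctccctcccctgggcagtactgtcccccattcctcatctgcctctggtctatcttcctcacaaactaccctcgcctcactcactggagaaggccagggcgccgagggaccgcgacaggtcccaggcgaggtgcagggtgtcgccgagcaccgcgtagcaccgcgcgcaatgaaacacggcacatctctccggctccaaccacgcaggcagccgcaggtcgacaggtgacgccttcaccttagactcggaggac
The window of Ube2c held CCAAT letters 6 times on either strand, including an overlapping pair, and that of Top2a also held 6. Kif20b had TTTGAA 2 times in a row next to the start and no CCAAT, whereas the window of Nusap1 held none of these letters. These are matches of letters in fixed windows, and binding was not measured.

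Among the named classes the summed members were highest in erythroid-like cells and next highest in megakaryocyte-like cells. The order of the others depended on few cells. With all cells plasma cell-like (801 CPM) and LEPR+ stromal-like cells were lowest, whereas without 1 stromal sub-cluster described below fibroblast-like cells were (322 CPM). Across the erythroid-like class they made up 7332 CPM in run 1 and 7311 CPM in run 2, which gave 7322 CPM (7305 to 7338) in 6426 cells. LEPR+ stromal-like cells had 880 CPM in run 1 and 876 CPM in run 2, and endothelial-like cells had 1110 and 1122 CPM. Fibroblast-like cells had 1619 CPM in run 1 and 1601 CPM in run 2, and megakaryocyte-like cells had 4128 and 4125 CPM. The runs differed by less than the counting intervals in each of these classes. The summed members were thus 8.34-fold higher in erythroid-like than in LEPR+ stromal-like cells, a log2 ratio of 3.06 (3.02 to 3.10). The log2 ratio was 2.71 (2.45 to 2.99) against endothelial-like cells, where 2 of the 48 cells, 1 of them a called doublet, held 46.8% of the member UMIs and 13.2% of all UMIs. Without these 2 cells, chosen by their member UMIs, the endothelial-like level was 684 CPM and the log2 ratio 3.42 (3.07 to 3.80). The ratio was 2.19 (2.11 to 2.26) against fibroblast-like and 0.83 (0.79 to 0.86) against megakaryocyte-like cells.

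**Figure D1:**
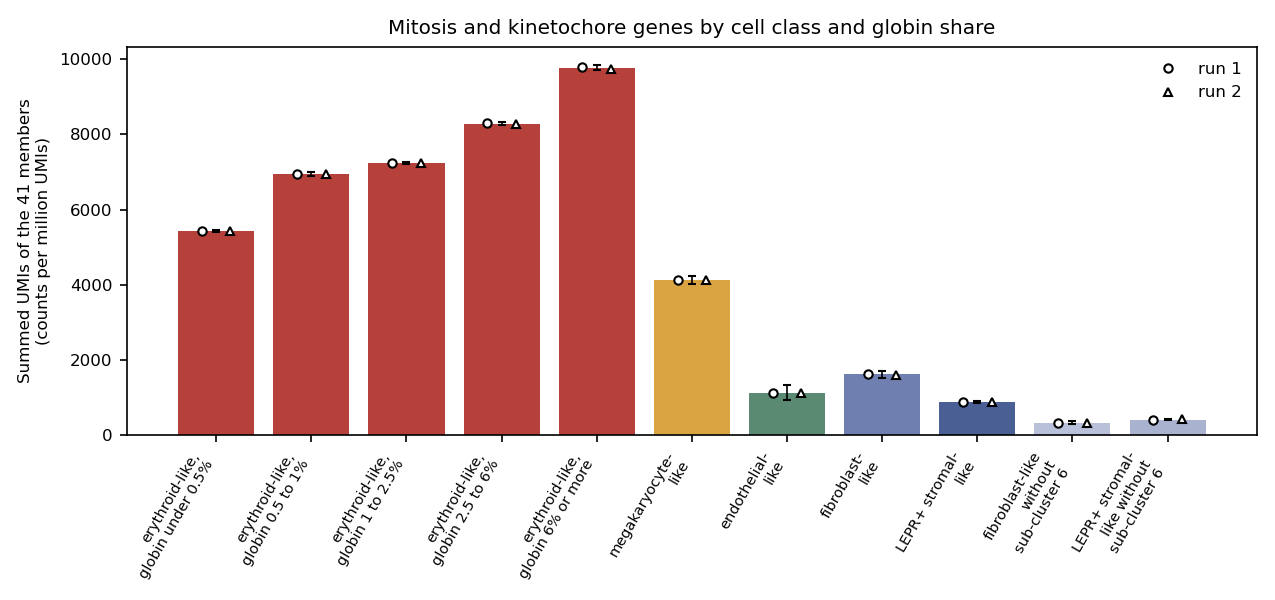
Summed UMIs of the 41 members per 1000000 UMIs (y axis, linear from 0) in each erythroid-like globin bin and each other class; bars are the mean of the runs, error bars the exact 95% counting interval, and circles and triangles the runs. The bars step up from 5431 CPM below 0.5% globin to 9773 CPM at 6% or more, and both stromal classes drop to 322 and 408 CPM without stromal sub-cluster 6.

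Most erythroid-like cells carried UMIs of several members. When run 1 of each cell was thinned to 1000 UMIs, leaving out 107 shallower cells, 91.7% (91.0 to 92.4%) of 6319 erythroid-like cells held at least 3 member UMIs, against 99.1% before thinning. At least 3 different members were found in 89.5% (88.7 to 90.2%) of these thinned cells, with a median of 6. The thinned share of cells with at least 3 member UMIs was 34.5% (25.8 to 44.0%) of 113 megakaryocyte-like, 6.98% (1.46 to 19.1%) of 43 endothelial-like, 6.47% (3.00 to 11.9%) of 139 fibroblast-like and 4.67% (3.74 to 5.75%) of 1798 LEPR+ stromal-like cells. The last of these was 13.3% before thinning. The shallower cells left out numbered 18, 5, 1 and 143 in the same order. Over erythroid-like cells thinned to 5000 UMIs, 1 of 4329 cells had no member UMI, the median was 33 member UMIs and the highest cell had 145.

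Each of the 41 members passed the minimum of 50 UMIs over both classes in every comparison described by single members, and their erythroid-like UMIs alone reached it, so passing says nothing of the other class. All 41 were at least 2-fold higher in erythroid-like than in LEPR+ stromal-like cells, where 19.5% of 12426 genes tested were. Their median log2 ratio was 3.23, from 1.99 for Cdc25b to 4.11 for Cdkn3, while the median of all genes was -0.72. All 41 were also at least 2-fold higher than in fibroblast-like cells (20.0% of all genes), with a median log2 ratio of 2.14 against -0.13 for all genes. Against endothelial-like cells single members were not compared, since the 48 cells held 118.5 member UMIs (mean of the runs) over 41 genes. Nuf2, Bub1b, Ttk, Cdkn3 and Kif22 had no UMI there, where 3 UMIs would have been 28.3 CPM.

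**Figure D2:**
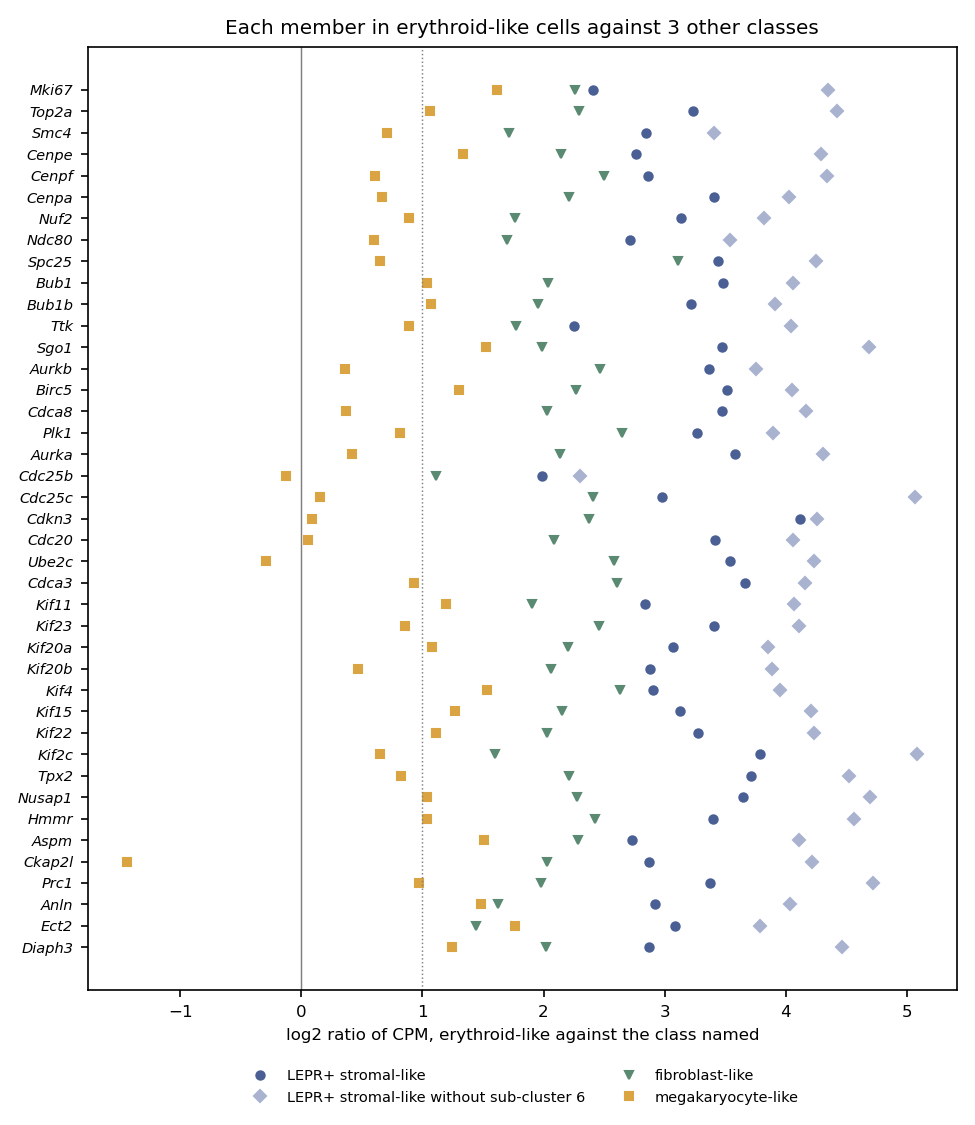
Log2 ratio of CPM of each member in erythroid-like cells against LEPR+ stromal-like, LEPR+ stromal-like without sub-cluster 6, fibroblast-like and megakaryocyte-like cells (x axis; the solid line is no difference, the dotted line 2-fold). The blue and green points all lie right of the 2-fold line, while in megakaryocyte-like cells Ckap2l, Ube2c and Cdc25b lie left of 0.

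Genes of chromosome structure had the most UMIs in erythroid-like cells, with Mki67, Top2a and Smc4 giving 32.7% of all member UMIs. Mki67 encodes the Ki67 protein that coats mitotic chromosomes. It was found at 1217 CPM in erythroid-like, 396 CPM in megakaryocyte-like, 254 CPM in fibroblast-like, 250 CPM in endothelial-like and 230 CPM in LEPR+ stromal-like cells. Without stromal sub-cluster 6 described below it was at 38.4 CPM in fibroblast-like and 59.9 CPM in LEPR+ stromal-like cells. A Mki67 UMI was seen in 96.1% of erythroid-like, 47.3% of megakaryocyte-like and 22.5% of LEPR+ stromal-like cells, at median depths of 28715.5, 8679 and 5135 UMIs. In cells thinned to 1000 UMIs these shares were 66.8% (65.7 to 68.0%), 24.8% (17.1 to 33.8%) and 7.95% (6.74 to 9.30%), the last of them 5.55% without sub-cluster 6 described below. Top2a, the topoisomerase that untangles chromosomes, was at 717 CPM in erythroid-like and 76.3 CPM in LEPR+ stromal-like cells. For Smc4, a condensin subunit, these levels were 462 and 64.1 CPM.

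Centromere and kinetochore genes gave 12.3% of member UMIs in erythroid-like cells. Cenpa, the histone variant of centromeres, had a log2 ratio of 3.41 against LEPR+ stromal-like cells, and Cenpe and Cenpf, which link kinetochores to microtubules, had 2.76 and 2.86. Nuf2, Ndc80 and Spc25 of the NDC80 complex had 3.13, 2.72 and 3.44. The checkpoint kinases Bub1 and Ttk and the checkpoint protein Bub1b had 3.48, 2.25 and 3.22, and Sgo1, the protector of centromeric cohesion, had 3.47. Of the chromosomal passenger complex, Birc5 (survivin), Cdca8 (borealin) and the kinase gene Aurkb had 3.52, 3.47 and 3.37. Among these groups Birc5 had the largest and Ttk the smallest ratio.

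Among the enzymes that drive mitosis, the log2 ratios against LEPR+ stromal-like cells were 3.27 for Plk1 and 3.58 for Aurka, kinases of the spindle poles. They were 1.99 and 2.98 for Cdc25b and Cdc25c, which activate CDK1, and 4.11 for Cdkn3, a phosphatase that acts on CDKs. The APC/C activator Cdc20, its ubiquitin-conjugating enzyme Ube2c and the mitotic entry gene Cdca3 had 3.42, 3.54 and 3.66. The 8 kinesins lay between 2.84 for Kif11, which pushes the spindle poles apart, and 3.79 for Kif2c, which depolymerizes microtubules. Of the spindle assembly genes, Tpx2, Nusap1, Hmmr, Aspm and Ckap2l had 3.71, 3.65, 3.40, 2.73 and 2.87. The cytokinesis genes Prc1, Anln, Ect2 and Diaph3 had 3.37, 2.92, 3.08 and 2.87. All of these groups were higher in erythroid-like cells, and no member was lower.

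Of 80 other mitosis genes, 78 passed the minimum and 67 were at least 2-fold higher in erythroid-like than in LEPR+ stromal-like cells, none of them 2-fold lower, with a median log2 ratio of 2.67. Those with the largest ratios were Cenpm (3.94), Ccnb2 (3.81), Sapcd2 (3.73), Ckap2 (3.68) and Pbk (3.60). Those with the smallest were Cenpc1 (-0.28), Anapc11 (-0.18), Anapc1 (-0.12), Cenpt (0.16) and Hjurp (0.44). Cenpc1 and Cenpt encode constitutive centromere proteins and Anapc1 and Anapc11 are core subunits of the APC/C, while Cenpm also encodes a constitutive centromere protein and Hjurp a chaperone of CENP-A. Cks2, Ube2s, Smc2, Cks1b and Ccnb2, which had the most UMIs of the list in erythroid-like cells, were at 616, 545, 507, 228 and 226 CPM there and at 57.4, 139, 52.5, 33.0 and 16.1 CPM in LEPR+ stromal-like cells.

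A single group of cells held most of the member UMIs of the LEPR+ stromal-like class. When the stromal cells were clustered again, 1 sub-cluster of 75 cells (sub-cluster 6, with 67 LEPR+ stromal-like and 8 fibroblast-like cells) had 6287 CPM of members, while the sub-clusters that kept a LEPR+ or fibroblast name (0, 2, 3 and 5) had 311 to 412 CPM. Sub-clusters 1 and 4 (372 and 225 cells) stayed unnamed by themselves and had 490 and 1085 CPM. They were left in the LEPR+ stromal-like class, which was named from the first clustering. It was singled out for this level, so the level is a description. Its leading genes by fold over all other kept cells, most of them erythroid-like, were Spp1, Mmp13, Col1a1 and Ibsp, which went against its nearest marker list, and it stayed unnamed. Set against the other LEPR+ stromal-like cells alone, Spp1 was higher (7714 against 1684 CPM) and Col1a1 too (437 against 251 CPM, found in 34 of the 75 cells), whereas Ibsp was lower (1863 against 2985 CPM). These cells were 3.45% of the LEPR+ stromal-like cells and gave 57.1% of their member UMIs. A Lepr UMI was found in 63 of the 75 cells, a Klf1 UMI in 53, a Gata1 UMI in 34 and a Mki67 UMI in 72. The doublet caller marked 53 of the 75 cells, and the 22 cells not marked had 4936 CPM of members and 4235 CPM of the 10 erythroid genes summed below. Lepr and Cxcl12 were at 461 and 5929 CPM in the sub-cluster against 1571 and 22126 CPM in the other LEPR+ stromal-like cells. The part of mixed droplets in these levels was not tested.

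Without this sub-cluster the summed members were at 404 CPM in run 1 and 412 CPM in run 2 of the remaining 1874 LEPR+ stromal-like cells. The log2 ratio of erythroid-like to these cells was 4.16 (4.10 to 4.23), with a fold of 17.9, and all 41 members were at least 2-fold higher (20.7% of 12406 genes, whose median was -0.72). Mki67 was at 59.9 CPM in these cells. The remaining 132 fibroblast-like cells had 325 CPM in run 1 and 319 CPM in run 2. The thinned share of LEPR+ stromal-like cells with at least 3 member UMIs was 1.68% without the sub-cluster.

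Erythroid RNA was present in droplets of every class. The sum of 10 non-globin erythroid genes (among them Klf1, Car1, Car2, Slc4a1 and Alas2) was 8487 CPM in erythroid-like, 1646 CPM in fibroblast-like, 876 CPM in endothelial-like, 802 CPM in megakaryocyte-like and 690 CPM in LEPR+ stromal-like cells. It was not ordered as the members were, since plasma cell-like cells had 1501 CPM of these genes with 801 CPM of members, and megakaryocyte-like cells had 4126 CPM of members. If each UMI of these genes brought members at the ratio of erythroid-like cells, 3288 member UMIs would stand beside the 4846 found in LEPR+ stromal-like cells, a ratio of observed to such UMIs of 1.47. Without the sub-cluster the ratio was 1.01, with 22 of 41 members above it. In fibroblast-like and endothelial-like cells it was 1.13 and 1.48, and in megakaryocyte-like cells it was 5.96 with 41 of 41 members above. The members per UMI of the 10 genes themselves ranged from 0.477 to 3.26 over the 9 erythroid-like clusters, so the ratio in erythroid-like cells is an average over unlike cells.

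Cells with the most UMIs of the 10 genes also had the highest member levels in the stromal and endothelial-like classes. In 308 LEPR+ stromal-like cells with none, the members were at 361 CPM, with 1 to 4 such UMIs and leaving out the sub-cluster 1310 cells had 380 CPM, and with 5 or more 256 cells had 582 CPM. In fibroblast-like cells, sub-cluster 6 included, these levels were 325, 305 and 3809 CPM in 23, 91 and 26 cells. They were 427, 659 and 2146 CPM in 12, 24 and 12 endothelial-like cells. A cell of this depth (a median of 4544.5 UMIs in the 308 cells) can have no UMI of the 10 genes by sampling, so the cells with none are not known to be free of erythroid RNA. How much of the stromal level was free erythroid RNA was not tested beyond these values.

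Megakaryocyte-like cells differed from the stromal classes in that 18 of 41 members were at least 2-fold higher in erythroid-like cells (17.3% of 11006 genes) and 1 was at least 2-fold lower (24.1% of genes). The median log2 ratio of members was 0.89 against -0.06 for all genes. Ect2, the activator of RhoA at the cleavage furrow, had the largest ratio with 1.76 (1.05 to 2.58), at 35.3 CPM in erythroid-like and 10.4 CPM in megakaryocyte-like cells. Mki67 had 1.62 (1.5 to 1.74), Kif4 1.53, Sgo1 1.52, Aspm 1.51 and Anln 1.49. At the other end, Cdc20, Cdkn3 and Cdc25c had 0.06, 0.09 and 0.16. By role, the log2 ratio was 1.23 for chromosome structure, 1.18 for checkpoint, 1.13 for cytokinesis, 1.06 for kinesin, 0.83 for chromosomal passenger, 0.76 for centromere and kinetochore, 0.56 for spindle assembly, 0.33 for kinase and phosphatase and 0.04 for APC/C and mitotic exit genes. The last value rested mainly on Ube2c and on 7 cells described below, since it was 1.07 without these cells and 0.72 with means of cells. Without the 7 cells the other roles lay between 1.05 for kinases and phosphatases and 1.82 for chromosome structure, so the APC/C genes were no longer the lowest role.

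Ckap2l, a spindle-associated protein gene, was the member at least 2-fold lower in erythroid-like cells. It was at 180 CPM in run 1 and 175 CPM in run 2 of megakaryocyte-like cells and at 65.6 CPM in erythroid-like cells, a log2 ratio of -1.44 (-1.61 to -1.25). Its level in erythroid-like cells stayed between 52.3 and 83.5 CPM over the globin bins, below the megakaryocyte-like level in each bin. A Ckap2l UMI was found in 53 of 131 megakaryocyte-like cells. The annotation lists a gene on the opposite strand of 11 of the 41 members, among them Ckap2l (Gm14024), Ube2c (Tnnc2), Cdc25b (Spef1), Nusap1 (Oip5), Prc1 (Rccd1) and Cdc20 (Elovl1). Reads of such pairs may not be told apart, since the strand setting of the counting is not given in the sources used here. Ube2c was at 461 CPM in megakaryocyte-like and 377 CPM in erythroid-like cells, a log2 ratio of -0.29 (-0.40 to -0.18), and Cdc25b had -0.12 (-0.54 to 0.33), an interval that includes 0.

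The members were unevenly spread over megakaryocyte-like cells. The median over cells of the member CPM was 719 in this class against 7299 in erythroid-like cells. The pooled level of 4126 CPM therefore stood above that of most megakaryocyte-like cells. The 7 cells with the most member UMIs, which were chosen by that number, held 59.7% of the member UMIs and 34.4% of all UMIs of the class. Their median depth was 105294 UMIs against 8268.5 in the other 124 cells, their members were at 7159 CPM against 2537 CPM, and Pf4 was at 26343 against 24536 CPM. The 10 erythroid genes were higher in these 7 cells too, at 1342 against 520 CPM. Over the whole class the members did not follow these genes in order. They were at 5056, 3027 and 4343 CPM in 16, 57 and 58 cells with none, 1 to 4 and 5 or more UMIs of the 10 genes. The part of erythroid RNA was not tested. None of the 7 was called a doublet, although 1 of them had no Pf4 UMI. The log2 ratio of erythroid-like to megakaryocyte-like cells was 1.53 without the 7 cells and 33 members were at least 2-fold higher (20.9% of 10930 genes). Ckap2l was at 272 CPM in the 7 cells and 128 CPM in the others, against 65.6 CPM in erythroid-like cells. Its log2 ratio of -1.44 was -0.96 without the 7 cells and -0.35 with means of cells, so no member was 2-fold lower under either. Cdc25b and Ube2c changed sign under both, Cdc25b from -0.12 to 0.78 and 0.32 and Ube2c from -0.29 to 0.80 and 0.43.

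Within the erythroid-like class the summed members, pooled over cells, were higher in each successive globin bin, while medians over cells did not keep this order. Cells with under 0.5% of UMIs from globin genes (n = 1914) had 5441 CPM in run 1 and 5422 CPM in run 2. The bin of 0.5 to 1% (n = 795) had 6956 and 6940 CPM, the bin of 1 to 2.5% (n = 1633) had 7240 and 7242 CPM, and the bin of 2.5 to 6% (n = 1507) had 8310 and 8271 CPM. Cells with 6% globin or more (n = 577) had 9793 CPM in run 1 and 9753 CPM in run 2. No run of one bin overlapped a run of the next, although both runs hold the same cells. The median over cells of the member CPM was 5684, 8021, 7381, 7885 and 9266 from the lowest to the highest bin, so the bin of 0.5 to 1% stood above the next 2. From the lowest to the highest bin the fold of the pooled level was 1.80, a log2 ratio of 0.85 (0.84 to 0.86), of which 0.41 (0.40 to 0.42) lay between the lowest bin and that of 1 to 2.5% and 0.43 (0.42 to 0.44) between that bin and the highest.

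All 41 members were above 0 on the log2 scale from the lowest to the highest bin, 36 had their highest level at 6% globin or more, and 27 were higher at each of the 4 steps. Of 9480 genes tested, 23.9%, 13.2% and 8.13% did so in the same order. The first of the member counts fell to 30 of 41 in cells with under 20000 UMIs and to 33 of 41 with means of cells, where Mki67 had -0.42 and -0.45. The share of all genes above 0 was not taken under these 2 settings, so these counts cannot be set against it. At least 2-fold higher were 13 of 41 members, while 3.72% of 9480 genes tested were, and the median log2 ratio was 0.79 for members against -0.51 for all genes. The count of 13 depended on scaling and depth, with 29 members under median-of-ratios size factors (9.94% of genes), 10 with means of cells (3.66%) and 7 in cells with under 20000 UMIs (3.73%). Of the 78 other mitosis genes that passed, 10 were at least 2-fold higher and 1 was 2-fold lower. Between under 0.5% and 1 to 2.5% globin 2 members were at least 2-fold higher (1.51% of 10043 genes, whose median was -0.17), namely Cdc25b and Cdkn3. Between 1 to 2.5% and 6% or more, 3 members were at least 2-fold higher (0.749% of 9348 genes, whose median was -0.32), namely Cdc25b, Ube2c and Cdkn3, and 0 were at least 2-fold lower (11.0% of genes).

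Cdc25b was the member with the largest difference across the globin range. It had 4.25 CPM in run 1 and 4.36 CPM in run 2 under 0.5% globin and 89.9 and 85.7 CPM at 6% or more, with 11.5, 20.7 and 41.7 CPM in the bins between. Its log2 ratio was 4.35 (4.05 to 4.66), and 0.590% (0.295 to 1.05%) of cells in the lowest bin and 8.39% (6.25 to 11.0%) in the highest had a Cdc25b UMI once thinned to 1000 UMIs (6.74% and 69.3% before). Cdkn3 had 29.5 and 30.0 CPM in the runs of the lowest bin and 152 and 158 CPM in those of the highest, a log2 ratio of 2.38 (2.25 to 2.51). Cdc25b removes inhibitory phosphates of CDKs, whereas Cdkn3 removes the activating phosphate, and both were higher at every step.

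Nusap1, which bundles spindle microtubules, had 107 and 108 CPM in the runs of the lowest bin and 404 and 402 CPM in those of the highest, a log2 ratio of 1.90 (1.83 to 1.98). Ube2c had 243 and 238 CPM in the runs of the lowest bin and 747 and 761 CPM in those of the highest, a log2 ratio of 1.65 (1.60 to 1.70). Most of that difference lay late, with a log2 ratio of 0.41 up to 1 to 2.5% globin and 1.24 beyond it. The 9 other members past 2-fold were Birc5 (1.35), Kif23 (1.30), Aurka (1.27), Cdca3 (1.23), Cenpf (1.2), Prc1 (1.11), Spc25 (1.09), Aurkb (1.08) and Sgo1 (1.00). Sgo1 lay just inside this fold with an interval of 0.88 to 1.12, and Cdc25c just outside it with 0.96.

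**Figure D3:**
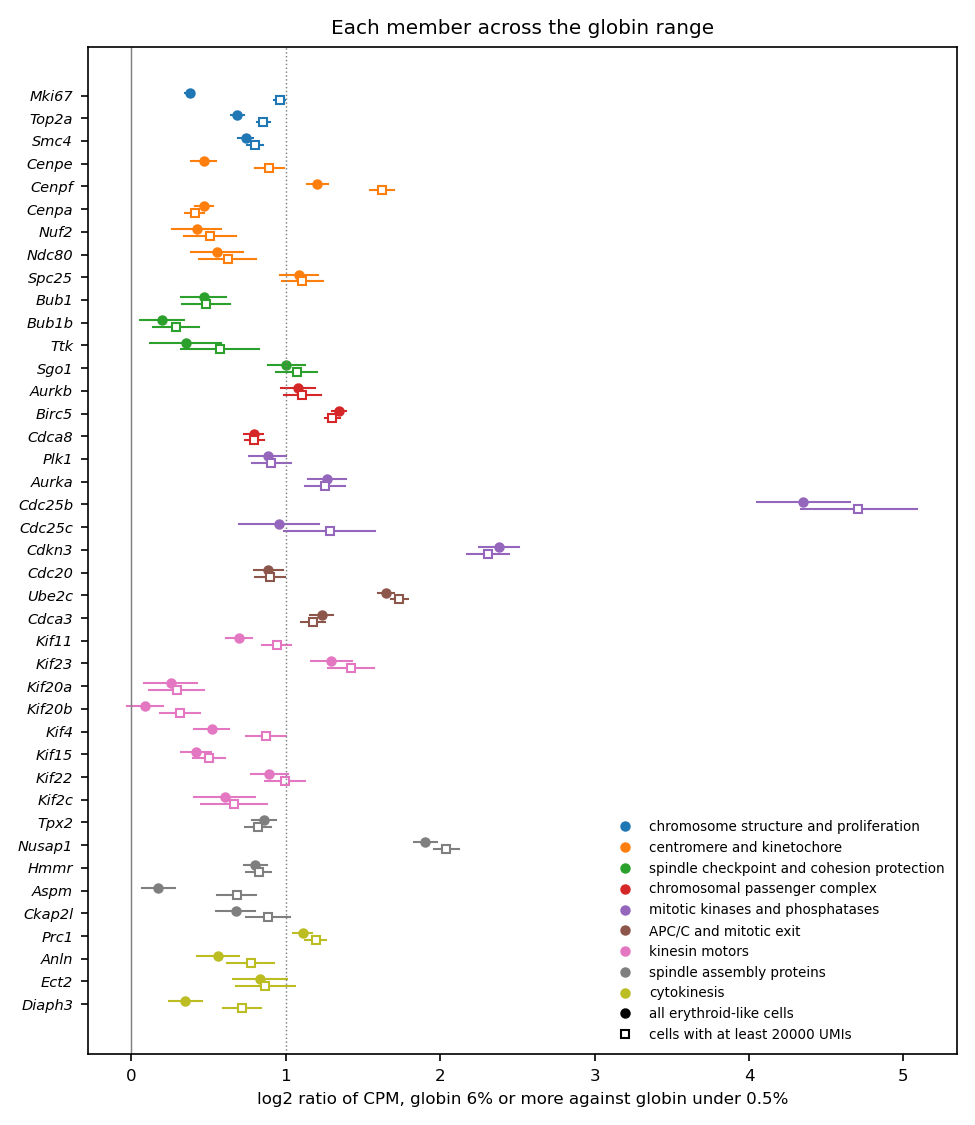
Log2 ratio of CPM of each member between erythroid-like cells with globin of 6% or more and under 0.5% (x axis), in all cells (filled) and in cells with at least 20000 UMIs (open squares); bars are exact 95% counting intervals and colours the roles. Cdc25b at 4.35, Cdkn3 at 2.38 and Nusap1 at 1.90 lie farthest right, and the interval of Kif20b in all cells includes 0.

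The members with the smallest differences across the globin range were Kif20b, Aspm, Bub1b and Kif20a. Kif20b, a kinesin of late cytokinesis, had 83.6 and 83.1 CPM in the runs of the lowest bin and 88.8 CPM in both runs of the highest, a log2 ratio of 0.09 (-0.03 to 0.21). Aspm, a protein of spindle poles, had 0.17, the checkpoint gene Bub1b 0.20 and Kif20a, a kinesin of the central spindle, 0.25. Mki67 had 0.38, with 1029 and 1018 CPM in the runs of the lowest bin and 1331 and 1329 CPM in those of the highest, and its own highest level of 1404 CPM at 0.5 to 1% globin. By role, kinases and phosphatases had the largest log2 ratio (1.69), followed by APC/C and mitotic exit (1.41), the chromosomal passenger complex (1.14), spindle assembly (1.03), cytokinesis (0.86), centromere and kinetochore (0.72), kinesins (0.59), checkpoint (0.57) and chromosome structure (0.54). The share of member UMIs from chromosome structure genes was 35.2% in the lowest and 28.4% in the highest bin, while that of APC/C and mitotic exit genes was 8.41% and 12.5%.

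Depth also differed between the bins. Median UMIs per cell over both runs were 10550 in the lowest bin, 11102, 41588 and 42083 in the next ones and 33863 in the highest. In cells with at least 20000 UMIs the members were at 4799, 6034, 6882, 8190 and 9792 CPM from the lowest to the highest bin, and 14 members were at least 2-fold higher at the end than at the start (4.66% of 9148 genes, whose median was -0.44). In cells with fewer UMIs the levels were 8143, 12096, 11161, 9907 and 9577 CPM. There the highest bin was lower than the bin of 1 to 2.5% (log2 ratio -0.22), and the log2 ratio from the lowest to the highest bin was 0.23. The order of the bins therefore held in the deep cells and not in the shallow ones, whose members were higher in every bin but the last.

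**Figure D4:**
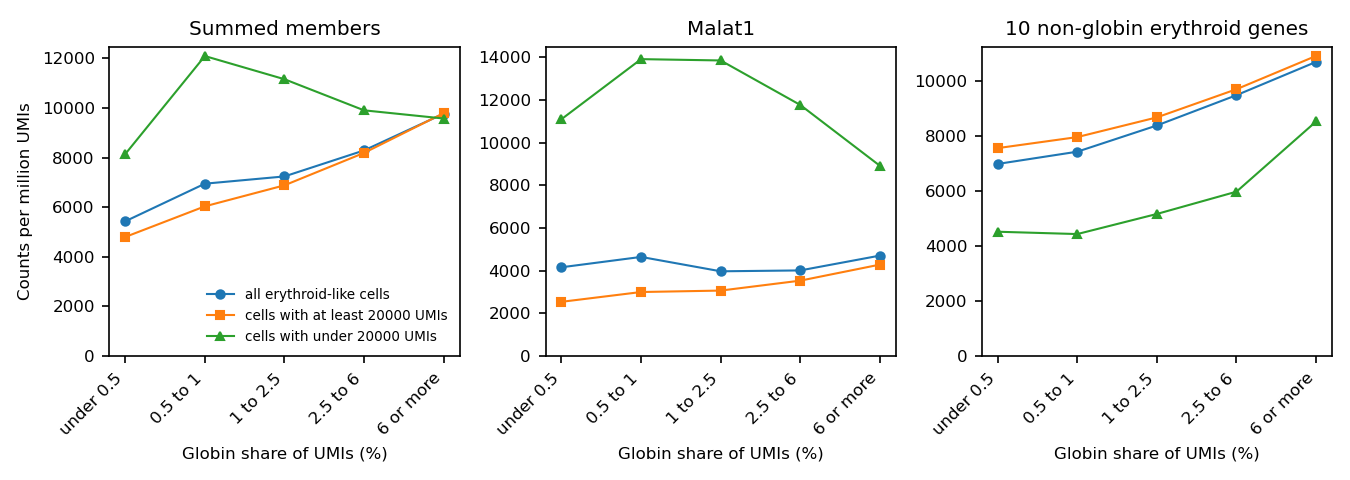
CPM of the summed members (left), Malat1 (middle) and the 10 non-globin erythroid genes (right) by globin bin (x axis, % of UMIs) for all erythroid-like cells, cells with at least 20000 UMIs and cells with fewer; y axes are linear from 0. Shallow cells have more members in 4 of the 5 bins, more Malat1 and fewer erythroid UMIs, and their members go from 12096 CPM at 0.5 to 1% globin to 9577 CPM at 6% or more.

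The shallow cells also differed in what else they held. Malat1, a nuclear non-coding RNA, was at 8915 to 13913 CPM in the bins of cells with under 20000 UMIs and at 2537 to 4281 CPM in those of deeper cells. The 10 non-globin erythroid genes were at 4435 to 8532 CPM in the former and 7563 to 10918 CPM in the latter. Mki67 gave 20.4 to 35.3% of member UMIs in the shallow and 12.9 to 15.6% in the deep cells. The shallow erythroid-like clusters 0, 4 and 10 (1207, 852 and 382 cells), with median depths of 5252, 9369.5 and 7127.5 UMIs, had 9788, 11526 and 12022 CPM of members. Cluster 0 was led by Gm26917 and Lars2, cluster 4 by genes that included Lars2, mt-Nd4l and mt-Atp8, and cluster 10 by histone and Hspa1b genes. Of the 15 erythroid markers 6, 9 and 6 were found in them. None was among their leading 10 genes, as in every erythroid-like cluster but cluster 8. Cluster 7 was lowest with 3834 CPM of members, of which Mki67 made up 3.75%. Droplets that lost cytoplasm and cells in a given cycle phase were not told apart here, and their part in these levels was not tested.

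Across erythroid-like cells thinned to 5000 UMIs, Malat1 was the gene most alike the summed members, with a Pearson r of 0.60 over 4329 cells of log values, among 4306 genes with at least 500 thinned UMIs. Over 20 thinning draws this r was 0.58 to 0.60. The members themselves were left out of this ranking. Against the sum of the other members, r was 0.54 for Top2a and Cenpf and 0.51 for Mki67. After Malat1, the next genes outside the members were Slc25a37 (0.51), the mitochondrial iron importer, and Slc4a1 (0.47), the band 3 anion exchanger. Sox6 (0.44), Hba-a1 (0.43), Hbb-bs (0.43), the linker histone gene Hist1h1e (0.43), Incenp (0.42), Hemgn (0.41) and Knl1 (0.38) followed. Incenp and Knl1 are mitosis genes outside the 41, while the others include globin and erythroid membrane genes. The cells share their library and sum to the same number of UMIs, so these correlations are descriptions. For single members, r with Malat1 was highest for Mki67 (0.66), followed by Cenpf, Cenpe, Top2a and Aspm (each 0.37), and lowest for Cenpa (0.0059).

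Members were only loosely alike from cell to cell. Over the 820 pairs of members the median r was 0.07, and 804 pairs were above 0. The highest pairs were Mki67 with Top2a (0.45), Top2a with Prc1 (0.42) and Ube2c with Nusap1 (0.41), and the lowest was Cenpa with Ndc80 (-0.05). At 5000 UMIs per cell most members had few counts, so weak values of r are no sign that genes are unrelated.

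The same cells were split within each globin bin by the summed UMIs of 30 S-phase genes, and the split was repeated over 20 thinning draws because its outcome moved with the draw. The log2 ratio of the summed members between cells high and low in S-phase genes had a median of 0.01 and went from -0.01 to 0.03 over the draws, with 2032 to 2096 cells on the high side. The bins were unlike in this respect. In 1 draw the Pearson r of log summed members and log summed S-phase genes was 0.45 at 6% globin or more, 0.20 under 0.5% and -0.07 to 0.00 in the bins between, and 0.26 over all 4329 cells. Single members differed in both directions. Mki67 was higher in cells with more S-phase UMIs (median 0.48, 0.45 to 0.52 over the draws), as were Kif15 (0.31) and Top2a (0.14), and the counting intervals of these 3 members lay above 0 in all 20 draws, a share near the 6.65% of 8430 genes. The intervals of 6 members lay below 0 in all draws (2.79% of genes, and 6 of 78 other mitosis genes), namely Ube2c (-0.76, -0.83 to -0.71), Cdc20 (-0.42), Plk1 (-0.38), Nusap1 (-0.26), Cenpf (-0.25) and Cdca8 (-0.16). In a single draw, 3 to 8 members had intervals above 0 and 10 to 17 below, so the other members could not be placed. The share of all genes was taken over all draws together and not for a single draw, so these counts cannot be set against it.

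**Figure D5:**
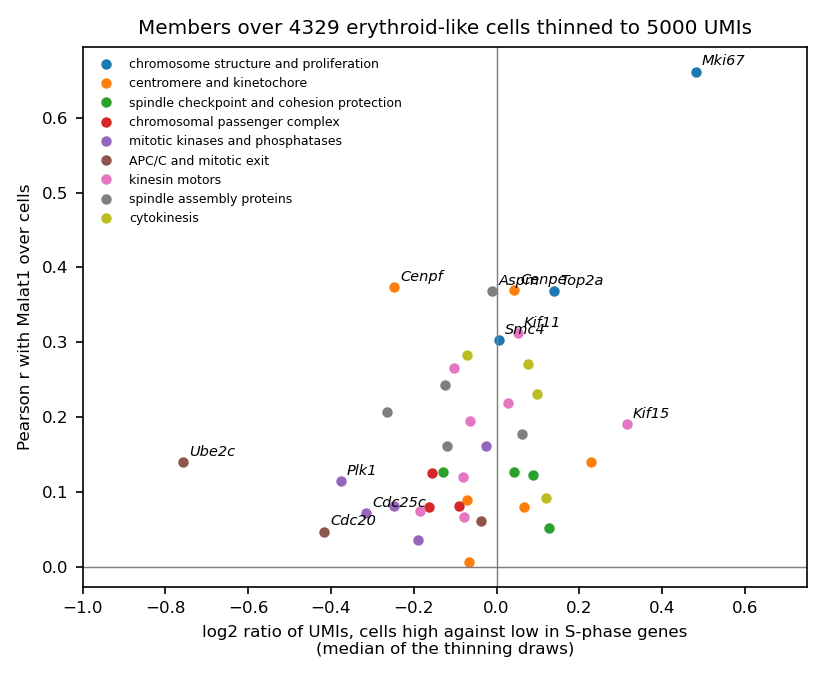
Each point is a member over 4329 erythroid-like cells thinned to 5000 UMIs; the x axis is the log2 ratio of its UMIs in cells high against cells low in S-phase genes (median of 20 draws), the y axis its Pearson r with Malat1 over cells, and colours are roles. Mki67 stands at the upper right (0.48, 0.66) and Ube2c at the far left (-0.76, 0.14).

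The study separates p16-bearing cells by the Ki67 and BCL-2 proteins. In its own single-cell RNA data it reports mutually exclusive Mki67+ or Bcl2+ subpopulations of Cdkn2a+ cells. Mki67 RNA was therefore set here beside that of Bcl2 and of Cdkn2a, which encodes p16 and also another protein. The study warns that variants of Cdkn2a are hard to separate in single-cell libraries, so a Cdkn2a UMI need not stand for p16. Cdkn2a UMIs were rare, in 18 of 9573 cells. Of the 9 mesenchymal (LEPR+ stromal-like or fibroblast-like) cells with Cdkn2a, 1 also had a Mki67 UMI (11.1%, 0.281 to 48.3%), and so did 22.8% of the 2072 mesenchymal cells without it. All 7 erythroid-like cells with a Cdkn2a UMI also had Mki67, as did 96.1% of the erythroid-like cells without one. Of the 600 mesenchymal cells with a Bcl2 UMI 24.3% (21.0 to 28.0%) had Mki67, against 22.1% of the 1481 cells without, at median depths of 6324 and 4875 UMIs. Without sub-cluster 6 these shares were 21.2% and 19.6%, and 3 cells in all had both Cdkn2a and Bcl2, of which 1 had Mki67. Without the sub-cluster Mki67 in LEPR+ stromal-like cells was at 0.888 times the level that the 10 erythroid genes would bring at the ratio of erythroid-like cells, and in fibroblast-like cells at 0.976 times. Whether a Mki67 UMI in a mesenchymal cell was background was not tested. All these cells come from 1 pool, and no difference in Mki67 with either gene was read from these shares. Of the 16 megakaryocyte-like cells with Bcl2, 81.3% (54.4 to 96.0%) had Mki67 against 42.6% of the 115 without, at median depths of 57601.5 and 7601 UMIs, and the part of depth in this was not tested.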

How the data were processed

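Cells from bone and marrow negative for CD45 and lineage markers, pooled from 3 mice and deposited as 2 labelled replicates (runs), were analysed as 1 sample by single-cell RNA-seq. Per the labels and the study's methods, the authors prepared 10x 3′ libraries and aligned and counted them with Cell Ranger on mm10. The values the authors deposited are unnormalized UMI counts, with 1 matrix of genes by barcodes from each run. Their header names software version 3.0.2, the methods name another version, and the submitters' processing notes also list Seurat 4.0 and R 4.0.3. The aligned strand setting is not given in the sources used here. Runs held 116827845 and 120556381 UMIs, with medians of 3980 and 4094.5 per barcode. Squared differences between runs were 0.559 times the summed counts, less than independent counts would give, so levels and intervals use the mean of the runs. Median depths, depth limits, globin shares and groups by erythroid UMIs used counts summed over both runs. Shares of cells with a UMI of a single gene before thinning did so too. A molecule seen in both runs can be counted in each of them there.

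Barcodes with at least 200 genes and at most 20% mitochondrial UMIs were kept (9573). Summed counts were clustered with Seurat 5.3.0 and sctransform 0.4.2 in R 4.3.3, with 3000 variable genes, 30 components and resolution 0.8, after removing 23 members from the variable genes. The stromal clusters were clustered again, a step added after the data had been seen. A marker counted if at least 10% of a cluster's cells had it and its CPM was at least 25% of its highest cluster. The list with the largest share found gave the name, with at least 3 markers found. Clusters whose leading 10 genes went against the name, or shallow ones with no own marker among them, stayed unnamed. Doublets were scored with Scrublet in scanpy 1.11.5 at an expected rate of 8%. It called 2.34% of cells, which were kept and removed only as an alternative.

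With 1 sample no test was run. CPM of summed UMIs, log2 ratios with exact conditional binomial intervals and shares with exact binomial intervals (95%) were computed in Python 3.11.15 with scipy 1.17.1 and numpy 2.4.6, and the limit of a count of 0 is 3 UMIs. UMIs of 1 cell are not independent of its state, so intervals cover counting error only. Genes with at least 50 UMIs over both groups entered each comparison, and 2-fold was the size used for counts. Globin shares were cut at 0.5, 1, 2.5 and 6%. Shares of cells used run 1 thinned to 1000 UMIs, and correlations and the S-phase split used 5000 UMIs, the latter in 20 random draws added after the data had been seen. Tested on simulated data for erythroid-like against LEPR+ stromal-like cells (12400 genes), 96.0% of intervals held the truth and 98.4% of changed genes were recovered, with 3.27% of unchanged genes past 2-fold. Against megakaryocyte-like cells (10958 genes) these shares were 96.5, 93.0 and 10.6%. The simulated class sums held counting error alone, which is what the intervals assume, and no spread between cells. They therefore do not tell how the intervals hold where few cells carry most member UMIs. Named were the 41 members, the 5 other mitosis genes with the most UMIs and the 5 with the largest and smallest ratios. Cdkn2a and Bcl2, the 10 genes outside the members most alike their sum, and class markers were named too. The 10 non-globin erythroid genes were used as a sum, and 1 of them is not reported here by itself. The members and lists were chosen with earlier results of these data known. The alternatives were other mitochondrial and UMI limits, doublets removed, each run alone, other scalings, means of cells, other clusterings and groups left out.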

Additional observations from a re-analysis of the deposited data

Results flagged for a closer look

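Member UMIs were also present in barcodes outside every comparison above. In the 1144 barcodes left out for over 20% mitochondrial UMIs with at least 200 genes, the summed members were at 6128 CPM, where 3 UMIs would be 1.29 CPM, and 95.3% of these barcodes had a member UMI. Their median mitochondrial share was 44.5% and the 10 non-globin erythroid genes were at 3458 CPM. In the 339 barcodes left out for under 200 genes the summed members were at 909 CPM, where 3 UMIs would be 10.1 CPM, and the 10 erythroid genes were at 1003 CPM. The kept barcodes had 6853 CPM of members and 7895 CPM of the 10 genes.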

How the results depend on the processing

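No paired analysis was possible because the 2 runs hold the same cells of 1 pool and no result comes from a test. Of 147 alternative values of 14 results, 95 stayed near the reported value, 51 moved and 1 changed sign. For ratios and shares, near meant within the counting error of the reported value. For counts of members it meant within a fixed fold of the reported count, without an interval. All 41 members stayed at least 2-fold higher in erythroid-like than in LEPR+ stromal-like cells throughout. The sign changed for globin 6% or more against 1 to 2.5% in cells with under 20000 UMIs (-0.22 in place of 0.43); the cause was not tested. Among single members, 409 of 1025 values moved beyond counting error and 24 changed sign. Of these, 11 lay between the globin ends in cells with under 20000 UMIs and 8 there with means of cells, and the other 5 were Cdc25b and Ube2c against megakaryocyte-like cells. None had been at least 2-fold. Alternatives with a depth limit of 20000 UMIs, without the stromal sub-cluster, without the top megakaryocyte-like or endothelial-like cells, and all those of the highest against the lowest globin bin and of the counts of 13 and 18 members were chosen after seeing the data.

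The log2 ratio of summed members in erythroid-like against LEPR+ stromal-like cells (3.06) was 3.16 with a mitochondrial limit of 10%, 2.86 with at least 5000 UMIs per cell, 4.02 without called doublets, 3.69 with median-of-ratios size factors, 3.65 as the mean of each cell's CPM, 3.75 with the members kept among the variable genes, 4.06 after clustering log-normalized counts, 3.17 at resolution 0.4, 3.17 at resolution 1.2 and 4.16 without the stromal sub-cluster. Against fibroblast-like cells (2.19) it was 2.64 without called doublets and 4.51 without the sub-cluster. Against endothelial-like cells (2.71) it was 3.09 without called doublets and 3.14 with the members kept, beside 3.42 without 2 cells. Against megakaryocyte-like cells (0.83) it was 1.53 without the 7 cells with the most members, and the count of 18 members (17.3% of genes) was then 33 (20.9%), or 31 with means of cells (31.1%).

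The log2 ratio of the highest against the lowest globin bin (0.85) was 0.90 with the mitochondrial limit of 10%, 0.87 with at least 5000 UMIs, 0.98 without globin UMIs in the total, 1.37 with median-of-ratios factors, 0.46 with means of cells, 1.03 with at least 20000 UMIs and 0.23 with fewer, and the count of 13 members (3.72% of genes) was 29 with median-of-ratios factors (9.94%) and 7 with under 20000 UMIs (3.73%). In the same order of settings the ratio up to 1 to 2.5% globin (0.41) was 0.44, 0.43, 0.44, 0.60, 0.29, 0.52 and 0.45. The ratio beyond it (0.43) was 0.45 with the limit of 10%, 0.55 without globin UMIs, 0.77 with median-of-ratios factors, 0.18 with means of cells, 0.42 with the unnamed clusters added and 0.51 with at least 20000 UMIs.

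The thinned share of erythroid-like cells (91.7%) was 66.1% at 500 UMIs and 75.2% for at least 5 member UMIs. That of LEPR+ stromal-like cells (4.67%) was 6.31% with at least 5000 UMIs, 2.19% without called doublets, 2.83% with members kept, 2.17% at 500 UMIs, 2.5% for at least 5 member UMIs and 1.68% without the sub-cluster. Members per erythroid UMI in LEPR+ stromal-like against erythroid-like cells (log2 0.56) were 0.74 with at least 5000 UMIs, 0.20 without called doublets, 0.43 with members kept and 0.0083 without the sub-cluster. Depth limits the 48 endothelial-like cells, where a member at 28.3 CPM has 3 UMIs. Either run alone left each ratio within counting error, which is no independent check since both runs hold the same cells. The count of members 2-fold higher than in megakaryocyte-like cells was 18 to 19 in single runs (17.8 to 18.1% of genes), 17 with at least 5000 UMIs (17.0%) and 25 with median-of-ratios factors (23.4%), a scaling that moved the members' median ratio by 0.28.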

Other observations

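A pair of other mitosis genes were close to absent from erythroid-like cells while found in megakaryocyte-like cells, and they were singled out after their values were seen. Cep55, which recruits the machinery of abscission to the midbody, had a mean of 9 UMIs per run in 6426 erythroid-like cells (0.0862 CPM, 0.0394 to 0.164) and 21 in 131 megakaryocyte-like cells (14.1 CPM, 8.73 to 21.5). Its run values in megakaryocyte-like cells were 16.4 and 11.9 CPM. Of its erythroid UMIs, 8 lay in cells with under 0.5% globin. Pimreg, a mitotic regulator gene, had 3.5 UMIs in erythroid-like cells (0.0335 CPM, 0.00809 to 0.0911) and 29.5 in megakaryocyte-like cells (19.8 CPM, 13.3 to 28.4). Both genes missed the minimum of 50 UMIs and so entered no count. In LEPR+ stromal-like cells Cep55 had 0.5 and Pimreg 3 UMIs.

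Of the other mitosis genes that passed, Depdc1a had the largest log2 ratio between globin of 6% or more and under 0.5% (1.75, from 22.3 to 74.7 CPM), followed by Kifc1 (1.45), Cdkn2c (1.33), Ccnb2 (1.30) and Dlgap5 (1.23). Sapcd2 was the 1 gene at least 2-fold lower (-1.24, from 9.82 to 4.17 CPM). Against megakaryocyte-like cells, Kif2a (-1.49) and Sapcd2 (-1.12) were at least 2-fold lower in erythroid-like cells. Kif2a, a kinesin that also acts outside mitosis, was at 233 and 257 CPM in the runs of megakaryocyte-like cells and at 87.2 CPM in erythroid-like cells. These genes too were chosen after their values were seen.

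The unnamed clusters differed in how many members they held beside their erythroid RNA. Cluster 12 (251 cells, led by Slfn14 and Xpo7) had 4446 CPM of members and 13203 CPM of the 10 non-globin erythroid genes, and its ratio of observed member UMIs to those expected from these genes was 0.39. Clusters 11 and 13 had 6352 and 5859 CPM of members and ratios of 1.12 and 0.95. Cluster 13 (237 cells, median depth 2459 UMIs) was nearest to the erythroid list but was led by Igfbp4, Mdk and Gpx3. Hp and Adipoq of the LEPR+ stromal list were also among its leading genes. The part of mixed droplets in its level was not tested. Plasma cell-like cells (44 cells) had 801 CPM of members and 1501 CPM of the 10 genes.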
